A study of Mus musculus with 6 samples.

Results

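The genes described here encode the protein components of the cytosolic ribosome. They were taken by symbol: Rps or Rpl followed by a number, together with Rplp0, Rplp1, Rplp2 and Rpsa, without pseudogene symbols and without the S6 kinases. The rule found 87 of the 33696 genes in the tables, 35 named for the small subunit and 52 for the large subunit. It left out 10 kinase genes and 5 pseudogene symbols, and used no measured value. It also took in Rps19bp1, which encodes a protein that binds the small-subunit protein S19 and is not itself part of the ribosome, and the retrogenes Rps27rt and Rps23rg1, and it passed over Fau, whose product is a fusion that releases a ribosomal protein.

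Single-nucleus RNA sequencing was performed on left ventricle of male mice aged 12 weeks, in 3 groups of 2 libraries each. Wild-type littermates on a control diet formed the WT-CD group. Mice carrying the R403Q mutation of the cardiac myosin heavy chain, a model of hypertrophic cardiomyopathy, received the control diet (R403Q-CD) or the same diet with empagliflozin (EMPA), an inhibitor of the sodium-glucose cotransporter SGLT2, at 0.15 mg per g of diet, or about 15 mg/kg body weight (R403Q-EMPA). Diets began at 9 to 10 weeks of age; the labels also give a feeding period that runs past the age at which hearts were taken, so the length of treatment before sampling is not stated here. The labels do not say whether the 2 libraries of a group came from separate animals, and p-values therefore measure the spread between these libraries, which may be technical. The libraries were made from isolated nuclei, and how much cytoplasmic RNA each barcode carried was not measured directly.

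A ribosome is built from a small subunit, which reads the message, and a large subunit, which joins amino acids. Each protein is present at about 1 copy per ribosome, apart from the P proteins of the stalk, and the genes are usually transcribed at coordinated rates. Their messages start with a cytosine followed by a run of pyrimidines, the terminal oligopyrimidine (TOP) element, through which the kinase mTORC1 controls their translation. In heart and skeletal muscle another form of protein L3, encoded by Rpl3l, takes the place of the general form encoded by Rpl3.

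Of the 87 members, 69 matched an entry in the promoter table from RefSeq (build GRCm38.p6; the counts were made on GRCm39, and no coordinate was carried between the builds). Each entry held 250 bases before and 50 bases after a start. A C followed by at least 4 pyrimidines on the sense strand, beginning within 5 bases of the start, was found for 32 of the 69 genes (46.4%), against 21.2% of all 27025 genes in the table. The same search on the opposite strand gave 15.9% of members and 24.4% of all genes. The letters CCGGAAG, searched on both strands over the whole entry, were present for 37.7% of members and 9.93% of all genes. The 2 searches overlap, because the reverse complement of CCGGAAG opens with a C and pyrimidines. Windows of 30 bases centred on the annotated start are printed below for Rps6, whose product is phosphorylated by the S6 kinases, for the stalk gene Rplp2, for Rpl7a and for Rpl3l. Capitals mark a run of pyrimidines that begins with C, and the windows were chosen after the sequences had been seen.
Rps6, chr4:86857353-86857382, minus strand: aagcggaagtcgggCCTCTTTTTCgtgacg
Rplp2, chr7:141447636-141447665, plus strand: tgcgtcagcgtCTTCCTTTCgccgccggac
Rpl7a, chr2:26910792-26910821, plus strand: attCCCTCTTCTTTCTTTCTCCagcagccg
Rpl3l at one annotated start, chr17:24727811-24727840, plus strand: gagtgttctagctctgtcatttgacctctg
Rpl3l at another annotated start, chr17:24732670-24732699, plus strand: gtcatcaacagctacagtgccccaaatgtc
No run of this kind stood at the position searched in either Rpl3l window. That says only that these letters are not there. A match is likewise a description of letters and not a measured transcription start.

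The 6 libraries held 69249 barcodes and between 31787308 and 45397128 unique molecular identifiers (UMIs, each 1 captured RNA molecule) per library. After the removal of doublets and of barcodes with over 5% mitochondrial UMIs, 46005 nuclei remained, 6409 to 9514 per library. They formed 24 clusters, which were named from marker genes, and 1 cluster of 41 nuclei stayed unnamed. Any pair of libraries shared 9 to 30 barcodes. There were 10 classes with at least 20 nuclei in each of the 6 libraries, and the 3 largest, fibroblast-like, cardiomyocyte-like and endothelial-like, were tested, with 2874097 to 14247423 UMIs per class and library. Values below are in the order WT-CD replicates 1 and 2, R403Q-CD replicates 1 and 2, and R403Q-EMPA replicates 1 and 2. The counts come from the 3′ ends of messages, so a level is in UMI counts of the gene scaled to a class total of 1000000 (CPM) and is not scaled by gene length.

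Ribosomal protein genes supplied a small part of the nuclear RNA, and cardiomyocyte-like nuclei had the lowest share of the 10 classes in every library. The 87 genes together made up 0.252%, 0.144%, 0.205%, 0.216%, 0.263% and 0.232% of the UMIs of cardiomyocyte-like nuclei. In fibroblast-like nuclei they made up 0.661%, 0.333%, 0.439%, 0.496%, 0.656% and 0.585%. In endothelial-like nuclei the shares were 0.862%, 0.443%, 0.582%, 0.649%, 0.771% and 0.693%. The 95% Wilson interval of each of these 18 shares was at most 0.00959 percentage points to either side and covers counting error only. Within a class the intervals of different libraries did not overlap, apart from those of WT-CD replicate 1 and R403Q-EMPA replicate 1 in fibroblast-like nuclei.

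By the mean over the 6 libraries the order of the classes was endocardial-like (0.751%), lymphoid-like (0.733%), endothelial-like (0.667%), lymphatic endothelial-like (0.622%), epicardial-like (0.614%), fibroblast-like (0.528%), myeloid-like (0.522%), smooth muscle-like (0.446%), pericyte-like (0.398%) and cardiomyocyte-like (0.219%). Pericyte-like nuclei stood above cardiomyocyte-like nuclei, and smooth muscle-like above pericyte-like nuclei, in 6 of 6 libraries. The other neighbours in this order exchanged places in at least 1 library, so that the full order of the upper classes is not fixed. Some classes further apart kept their order in every library. Endocardial-like nuclei lay above endothelial-like nuclei, with the smallest gap in R403Q-EMPA replicate 1 (0.775% and 0.771%), and endothelial-like lay above fibroblast-like nuclei. The class with the highest share was endocardial-like in 3 libraries and lymphatic endothelial-like, epicardial-like or lymphoid-like in 1 each. Per nucleus the picture was different. A cardiomyocyte-like nucleus held on average 16.7 to 25.7 UMIs of these genes, a fibroblast-like nucleus 14.3 to 28.4 and an endothelial-like nucleus 14.3 to 25.1. The mean of all UMIs per nucleus was 7208 to 12158 in the cardiomyocyte-like class, 2692 to 4742 in the fibroblast-like class and 2260 to 3537 in the endothelial-like class. In R403Q-EMPA replicate 1 and WT-CD replicate 1 both other classes held more per nucleus than the cardiomyocyte-like class, and endocardial-like (21.3 to 35.1) and epicardial-like nuclei (22.4 to 37.3) held more in 6 of 6 libraries. The place of cardiomyocyte-like nuclei at the bottom of the order thus held for the share of UMIs and not for UMIs per nucleus.

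**Figure D1:**
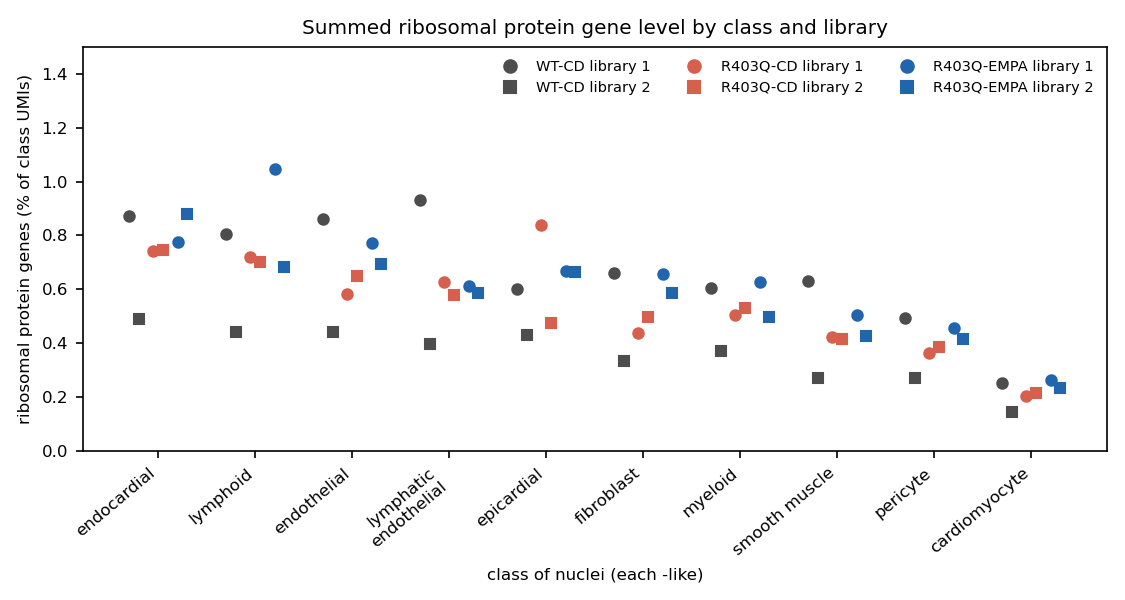
Share of UMIs from the 87 ribosomal protein genes (percent of the UMIs of the class, vertical axis) in each of the 10 classes of nuclei, 1 point per library, with colour for the group and shape for the library. Cardiomyocyte-like nuclei lie lowest in all 6 libraries (0.144% to 0.263%), and WT-CD replicate 2 lies below WT-CD replicate 1 in all 10 classes.

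The 2 WT-CD libraries differed more from each other than the groups did. The share in replicate 1 was 1.39 to 2.34 times that in replicate 2 across the 10 classes. In fibroblast-like, cardiomyocyte-like and endothelial-like nuclei every one of the 83 members tested was higher in WT-CD replicate 1, with a median fold of 1.92, 1.69 and 1.90, while 61.4%, 66.9% and 64.2% of all genes tested were higher in that library. The means ± SD (n = 2 libraries) of WT-CD, R403Q-CD and R403Q-EMPA, in that order, were 0.497% ± 0.232, 0.468% ± 0.0401 and 0.620% ± 0.0505 for fibroblast-like nuclei. For cardiomyocyte-like nuclei they were 0.198% ± 0.0763, 0.211% ± 0.00738 and 0.247% ± 0.0215. In endothelial-like nuclei they were 0.652% ± 0.296, 0.616% ± 0.0469 and 0.732% ± 0.0552. WT-CD thus overlapped both other groups, whereas both R403Q-EMPA libraries lay above both R403Q-CD libraries in each of these 3 classes. The same held in endocardial-like, smooth muscle-like and pericyte-like nuclei. It did not hold in lymphoid-like, lymphatic endothelial-like, epicardial-like and myeloid-like nuclei, where the R403Q-EMPA and R403Q-CD libraries overlapped.

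The members differed widely in level. The 10 members with the highest mean over the 3 tested classes supplied 23.6% of the UMIs of the whole set. Among them were Rpl13 (147 CPM), Rplp1 (116), Rps24 (114), Rpl6 (103), Rpl23 (99.9), Rps14 (98.6), Rpl19 (87.4), Rpl17 (81.6) and Rps20 (81.5). At the other end were Rps27rt with 57 UMIs in all nuclei, Rpl39l with 16, Rps23rg1 with 13 and Rpl10l with 0, which allows a level of up to 0.0153 CPM over all nuclei (3 UMIs). These 4 genes did not pass the filter on low counts, and the other 83 passed it in all 3 classes. Small-subunit genes took 37.1% to 39.6% of the members' UMIs in cardiomyocyte-like nuclei, 41.2% to 41.9% in fibroblast-like nuclei and 42.0% to 42.8% in endothelial-like nuclei, and the 3 ranges did not overlap. Rpl3l, counted with the large subunit, supplied 1303 to 1516 of the members' 12509 to 37407 UMIs per library in cardiomyocyte-like nuclei. In all it had 8438 UMIs there, against 359 in fibroblast-like and 311 in endothelial-like nuclei. The ranges without Rpl3l were not computed. Of the 83 members, 38 had their highest mean CPM in lymphoid-like nuclei and 33 in endocardial-like nuclei. Another 5 were highest in lymphatic endothelial-like nuclei (among them Rpl24 and Rpl41), 3 in epicardial-like nuclei (Rpsa, Rplp0 and Rpl29) and 2 in endothelial-like nuclei (among them Rps28). Rpl36al was highest in smooth muscle-like nuclei, and Rpl3l alone was highest in cardiomyocyte-like nuclei. The lymphoid-like class was small, with 55 to 104 nuclei and 854 to 1840 UMIs of the 87 genes per library. It had the highest summed share of the classes only in R403Q-EMPA replicate 1 (1.05%). Peaks in that class therefore rest on few UMIs per gene.

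**Figure D2:**
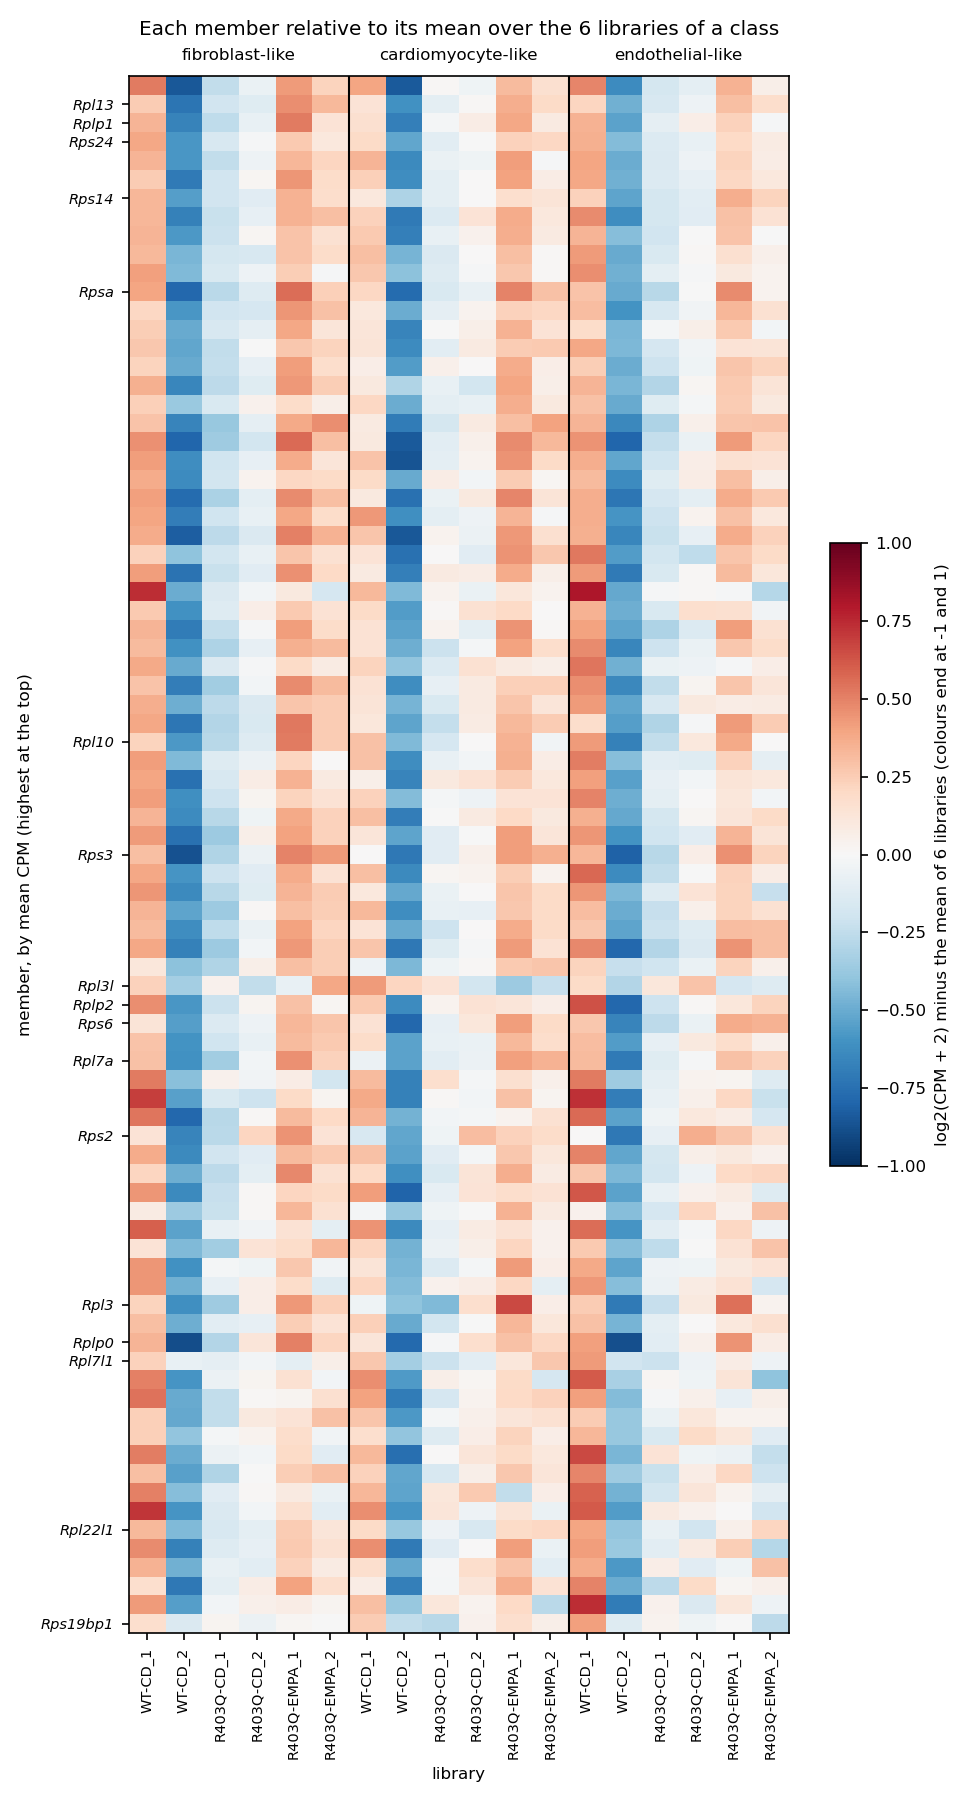
Each of the 83 ribosomal protein genes tested (rows, highest mean CPM at the top, some of them labelled) in the 6 libraries of each tested class (columns), as log2(CPM + 2) minus the gene's mean over the 6 libraries of that class, red above and blue below. WT-CD replicate 2 is the blue column in each class, with few exceptions such as Rpl3l in cardiomyocyte-like nuclei.

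R403Q-CD against WT-CD addresses the effect of the mutation on the control diet. No ribosomal protein gene passed the test in any of the 3 classes (edgeR quasi-likelihood test, Benjamini-Hochberg adjustment over all genes, adjusted p under 0.05). In fibroblast-like nuclei 0 of 83 members were called, against 0% of all genes. At an unadjusted p under 0.05 there were 0 members, and DESeq2 called 0. The median log2 fold change of the members was -0.07, against -0.01 over all genes, and 16 of 83 lay above 0. In cardiomyocyte-like nuclei 0 were called by edgeR and 0 by DESeq2, against 0.0627% of all genes by edgeR. There 1 member was under an unadjusted p of 0.05, the median was 0.13 (all genes -0.01), and 71 lay above 0. In endothelial-like nuclei both tools again called 0 members, and edgeR called 0% of all genes. Again 1 member was under an unadjusted p of 0.05, the median was -0.00 (all genes 0.00), and 38 lay above 0. Of all genes, 3.03%, 6.76% and 3.50% were under an unadjusted p of 0.05 in fibroblast-like, cardiomyocyte-like and endothelial-like nuclei, more than of the members in each class. The SD between libraries of a group in the members' median level, pooled over the groups, was 0.41, 0.32 and 0.41 on the log2 scale. In each class this was wider than the members' median fold change in any of the 3 comparisons of groups, those with R403Q-EMPA included. The WT-CD pair was the widest, with a median log2 ratio of replicate 1 to replicate 2 of 0.94, 0.76 and 0.93. For R403Q-CD this ratio was -0.15, -0.11 and -0.15, while R403Q-EMPA had 0.16, 0.18 and 0.14. R403Q-EMPA against R403Q-CD compares no WT-CD library. Its median log2 fold changes of 0.36, 0.21 and 0.20 were larger in size than the replicate ratios of its own groups.

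The members with the smallest p in this comparison were no more than candidates by that rule. Rps2, a small-subunit protein near the messenger RNA entry, had 23.5, 17.9, 25.7, 33.3, 31.4 and 30.4 CPM in cardiomyocyte-like nuclei. Both R403Q-CD libraries lay above both WT-CD libraries, with a log2 fold change of 0.51 (adjusted p = 0.516 by edgeR, SE 0.17). Rpl28 in the same class had a log2 fold change of 0.43 (adjusted p = 0.781 by edgeR, SE 0.21), and its 20.2, 11.5, 20.9, 21.6, 23.4 and 21.0 CPM show that WT-CD replicate 2 was the library that stood apart. In endothelial-like nuclei Rps2 was again the member with the smallest p (0.56, adjusted p = 1.00 by edgeR, SE 0.22), at 59.3, 35.2, 55.8, 76.6, 72.2 and 65.8 CPM, and here WT-CD replicate 1 overlapped R403Q-CD. Rpl12, of the stalk base, followed with 0.28 (SE 0.19), and Rpl3l with 0.36 (adjusted p = 1.00 by edgeR, SE 0.26). The Rpl3l reads in this class cannot be told apart from RNA carried over from cardiomyocytes, as described below. This value was therefore not read as expression. In fibroblast-like nuclei Rpl37 (-0.38, SE 0.30), Rps21 (-0.33, SE 0.30) and Rpl7l1 (-0.14, SE 0.14) had the smallest p, and each had an adjusted p of 1.00 by edgeR.

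R403Q-EMPA against R403Q-CD addresses the effect of the drug in mutant hearts. Most members had a fold change above 0 in all 3 classes, and none passed the test. In fibroblast-like nuclei edgeR and DESeq2 each called 0 of 83 members, against 0.372% of all genes by edgeR. At an unadjusted p under 0.05 there were 4 members by edgeR (4.82%, against 13.4% of all genes) and 12 by DESeq2, the smallest adjusted p by edgeR was 0.309, the median log2 fold change was 0.36 (all genes 0.00), and 80 of 83 lay above 0. In cardiomyocyte-like nuclei both tools called 0, against 0.251% of all genes by edgeR. By edgeR 1 member and 12.7% of all genes, and by DESeq2 0 members, were under an unadjusted p of 0.05, the median was 0.21 (all genes 0.01), and 73 lay above 0. In endothelial-like nuclei both tools called 0, against 0.171% of all genes by edgeR. Each tool put 1 member under an unadjusted p of 0.05, where edgeR put 9.42% of all genes, the median was 0.20 (all genes 0.01), and 67 lay above 0.

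Both R403Q-EMPA libraries lay above both R403Q-CD libraries in CPM for 67 of 83 members in fibroblast-like nuclei, where 30.9% of all genes did so. The counts were 58 in cardiomyocyte-like nuclei (32.6% of all genes) and 47 in endothelial-like nuclei (27.4% of all genes). In the opposite direction no member lay below in fibroblast-like nuclei (21.9% of all genes), Rps27 and Rpl3l did in cardiomyocyte-like nuclei (20.6%), and Rpl35, Rps21, Rpl3l and Rpl39 did in endothelial-like nuclei (19.9%). The comparisons with WT-CD gave lower counts. Both R403Q-EMPA libraries lay above both WT-CD libraries for 13 members in fibroblast-like (23.4% of all genes), 27 in cardiomyocyte-like (27.7%) and 5 in endothelial-like nuclei (18.6%), and both R403Q-CD libraries lay above both WT-CD libraries for 0 (15.7%), 3 (18.0%) and 0 (12.7%). All 83 members differed in the same direction between the 2 WT-CD libraries, so they are not independent of each other and such a count is not a test.

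Of the most abundant members, Rpl13 had 192, 96.2, 141, 147, 222 and 201 CPM in fibroblast-like nuclei. Its levels were 62.9, 36.9, 53.2, 57.7, 74.0 and 65.3 CPM in the cardiomyocyte-like class and 249, 152, 191, 206, 264 and 241 CPM in the endothelial-like class. In each class both R403Q-EMPA libraries lay above both R403Q-CD libraries. They were the highest of the 6 in the fibroblast-like and cardiomyocyte-like classes, whereas in the endothelial-like class WT-CD replicate 1 lay between them. Its log2 fold change for R403Q-EMPA against R403Q-CD was 0.51 (SE 0.24), 0.27 (SE 0.18) and 0.32 (SE 0.18) in fibroblast-like, cardiomyocyte-like and endothelial-like nuclei, with an adjusted p of 0.410, 0.582 and 0.647 by edgeR. Over all of the 10 most abundant members the log2 fold change for this comparison ran from 0.23 (Rps24) to 0.51 (Rpl13) in fibroblast-like nuclei, from 0.14 (Rps14) to 0.27 (Rpl13) in cardiomyocyte-like nuclei and from 0.09 (Rplp1) to 0.41 (Rps14) in endothelial-like nuclei. None of these 30 values passed the test.

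The stalk of the large subunit, which recruits elongation factors, is made of the products of Rplp0, Rplp1 and Rplp2. In fibroblast-like nuclei Rplp1 had 153, 74.96, 101, 114, 173 and 133 CPM, Rplp0 54.7, 22.2, 34.6, 46.6, 61.5 and 49.8, and Rplp2 72.0, 33.8, 44.3, 52.6, 63.6 and 52.2. Rplp0 and Rplp1 had non-overlapping groups for R403Q-EMPA against R403Q-CD in this class, with R403Q-EMPA higher, and Rplp2 did not. In cardiomyocyte-like nuclei their log2 fold changes for that comparison were 0.13, 0.17 and -0.05 (SE 0.24, 0.21 and 0.22), each smaller than its standard error. Rpsa, which encodes a small-subunit protein also known as the laminin receptor, had 124, 53.9, 77.9, 86.0, 140 and 111 CPM in fibroblast-like nuclei and 39.7, 19.3, 30.5, 32.3, 49.1 and 42.3 CPM in cardiomyocyte-like nuclei. Its log2 fold change was 0.57 (adjusted p = 0.446 by edgeR, SE 0.29) in the former and 0.48 (adjusted p = 0.420 by edgeR, SE 0.23) in the latter. Rps6 had 54.7, 33.5, 45.2, 48.2, 63.4 and 61.0 CPM in fibroblast-like nuclei. Its levels were 22.5, 10.8, 19.0, 22.0, 27.6 and 23.3 CPM in the cardiomyocyte-like class and 85.2, 43.9, 58.6, 67.4, 91.5 and 90.1 CPM in the endothelial-like class. R403Q-EMPA lay above R403Q-CD without overlap in all 3, with log2 fold changes of 0.37 (SE 0.19), 0.25 (SE 0.24) and 0.49 (SE 0.23) and an adjusted p of 0.443, 0.703 and 0.552 by edgeR. Rps19bp1, which does not encode a ribosomal protein, had 7.44, 5.59, 6.57, 6.08, 6.54 and 6.38 CPM in fibroblast-like nuclei. Its log2 fold change for the same comparison was -0.01 (SE 0.25) there, 0.31 (SE 0.37) in cardiomyocyte-like nuclei and -0.16 (SE 0.31) in endothelial-like nuclei.

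The members with the smallest p in fibroblast-like nuclei were Rpl10 (0.57, adjusted p = 0.309 by edgeR, SE 0.22), whose product completes the large subunit, Rpl9 (0.62, adjusted p = 0.331 by edgeR, SE 0.25) and Rps9 (0.52, adjusted p = 0.334 by edgeR, SE 0.21). Rpl10 had 80.4, 45.5, 56.2, 62.5, 99.3 and 82.3 CPM there, and the 2 R403Q-EMPA libraries were the highest of the 6. In cardiomyocyte-like nuclei Rpl7a led (0.45, adjusted p = 0.306 by edgeR, SE 0.17), with 19.3, 13.3, 18.6, 19.3, 27.5 and 26.2 CPM and again both R403Q-EMPA libraries highest. Rpsa and Rpl3l came next in that class. In endothelial-like nuclei Rpl7 (0.47, adjusted p = 0.519 by edgeR, SE 0.20), Rps3a1 (0.46, adjusted p = 0.534 by edgeR, SE 0.20) and Rps6 led. Rpl7 had 94.6, 56.2, 67.5, 82.8, 113 and 99.9 CPM, and Rps3a1 83.7, 47.3, 59.3, 63.1, 86.3 and 85.6.

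**Figure D3:**
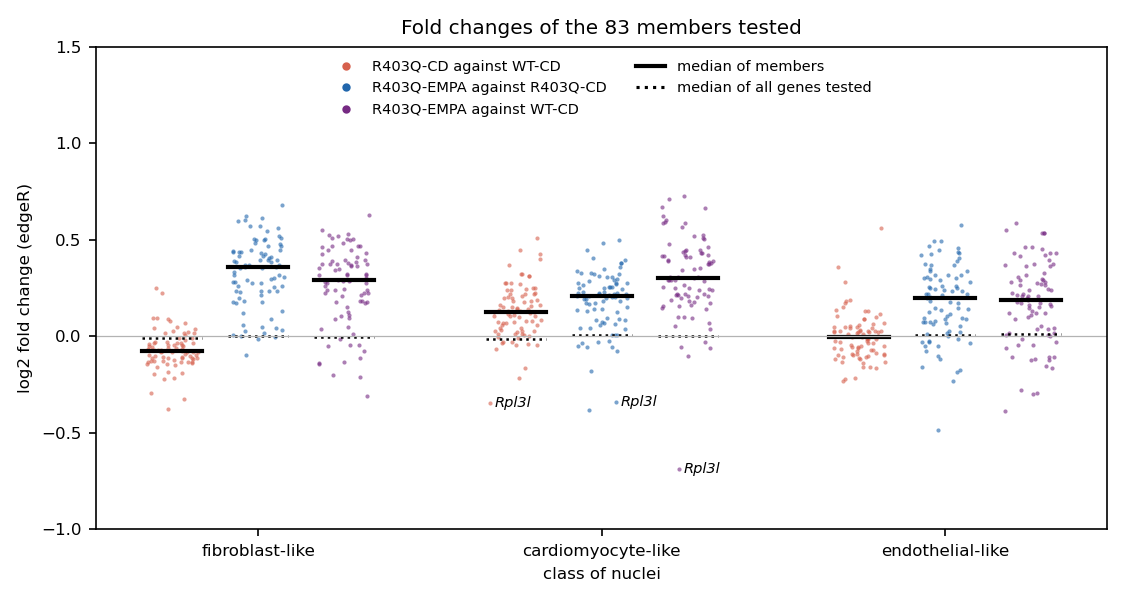
Log2 fold change by edgeR (vertical axis) of each of the 83 ribosomal protein genes tested (points) for the 3 comparisons in each of the 3 classes, with the median of the members as a solid line and of all genes tested as a dotted line. The members' medians lie at 0.36, 0.21 and 0.20 for R403Q-EMPA against R403Q-CD in fibroblast-like, cardiomyocyte-like and endothelial-like nuclei, and none of the points passes the test.

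R403Q-EMPA against WT-CD rests on the WT-CD libraries, which stood far apart, and shares its R403Q-EMPA libraries with the comparison above. In fibroblast-like nuclei edgeR and DESeq2 called 0 members, against 1.23% of all genes by edgeR. By edgeR 3 members (3.61%, against 14.3% of all genes) and by DESeq2 6 were under an unadjusted p of 0.05, led by Rps6 (0.46, adjusted p = 0.304 by edgeR, SE 0.19), Rps9 and Rpl10. The median log2 fold change was 0.29 (all genes -0.00), with 71 of 83 above 0. In cardiomyocyte-like nuclei edgeR called 0 members, against 4.00% of all genes, and DESeq2 called 1, Rpl3l. There 17 members were under an unadjusted p of 0.05 by edgeR, 16 of them higher in R403Q-EMPA, and 11 by DESeq2. The 17 were 20.5% of the members, close to the 19.5% of all genes under that p by edgeR. The median was 0.30 (all genes 0.00), with 78 above 0. In endothelial-like nuclei both tools called 0, against 0.640% of all genes by edgeR. By edgeR 3 members (3.61%, against 12.5% of all genes) and by DESeq2 4 were under an unadjusted p of 0.05, led by Rps2 (0.59, adjusted p = 0.328 by edgeR, SE 0.22), Rpl7 and Rps6, and the median was 0.19 (all genes 0.01), with 66 above 0.

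In cardiomyocyte-like nuclei the members closest to the threshold after Rpl3l were Rpl7a (0.67, adjusted p = 0.0605 by edgeR, SE 0.17) and Rps3 (0.73, adjusted p = 0.0897 by edgeR, SE 0.21). Rps3, at the entry of the messenger RNA channel, had 17.8, 10.0, 16.2, 18.4, 24.4 and 23.3 CPM. Both R403Q-EMPA libraries lay above all 4 others for each of these genes. These calls depended on single libraries. Without WT-CD replicate 1 edgeR called 50 members in fibroblast-like, 31 in cardiomyocyte-like and 33 in endothelial-like nuclei, all higher in R403Q-EMPA, when 3.56%, 5.80% and 3.61% of all genes were called. Without WT-CD replicate 2 it called 1, 0 and 1, when 1.08%, 4.17% and 1.32% of all genes were called, so that the members' counts were near or below the background. The called member, Rps21 in both classes, was lower in R403Q-EMPA.

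The share of mitochondrial transcripts moved with some of these values. Mitochondrially encoded genes made up 2.81%, 2.22%, 1.89%, 1.98%, 2.21% and 3.10% of the UMIs of fibroblast-like nuclei, 1.13%, 0.916%, 0.876%, 0.948%, 1.23% and 1.33% of cardiomyocyte-like nuclei and 3.28%, 2.86%, 2.50%, 2.65%, 2.84% and 3.61% of endothelial-like nuclei. R403Q-EMPA lay above R403Q-CD without overlap in each class, as the ribosomal protein genes did. The nuclei were therefore divided by their own mitochondrial share in steps of 1 percentage point, keeping the 11 steps with at least 20 nuclei in each library. The members' share increased from each step to the next in every library of all 3 classes, for example from 0.179% to 0.254% and 0.386% in cardiomyocyte-like nuclei of R403Q-CD replicate 1. The ratio of WT-CD replicate 1 to replicate 2 was 1.49 to 1.93 in all 11, and WT-CD replicate 2 was the lowest library in each. The ratio of the R403Q-EMPA mean to the R403Q-CD mean, from the lowest step to the highest, was 1.11, 0.976 and 0.957 in cardiomyocyte-like nuclei (0 to 3%). It was 1.28, 1.16, 1.13 and 0.970 in fibroblast-like nuclei and 1.19, 1.17, 1.07 and 1.02 in endothelial-like nuclei (both 1 to 5%). Both R403Q-EMPA libraries lay above both R403Q-CD libraries in 4 of the 11 steps, namely the lowest of each class and the next one in endothelial-like nuclei. The part of the mitochondrial share in the difference between groups was not tested further.

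The make-up of the classes differed between groups as well. Fibroblast-like cluster 18, led by Ltbp2, Cilp, Thbs4 and Postn, held 1.14%, 1.12%, 0.840%, 2.13%, 25.1% and 4.94% of its class, and cluster 4 held 47.8%, 51.1%, 52.7%, 50.4%, 17.4% and 37.3%. Within cluster 4 alone the members' share was 0.532%, 0.288%, 0.389%, 0.425%, 0.554% and 0.470%, and within cluster 1 it was 0.754%, 0.378%, 0.486%, 0.579%, 0.676% and 0.644%. R403Q-EMPA stayed above R403Q-CD without overlap inside both clusters. In the cardiomyocyte-like class, cluster 12 held 90.2%, 86.0%, 74.8%, 53.6%, 24.9% and 51.4% of nuclei and cluster 13, with Nppb among its leading genes, held 5.16%, 5.47%, 12.8%, 23.9%, 51.2% and 36.7%. The members' share was alike in these clusters, at 0.250%, 0.141%, 0.197%, 0.202%, 0.251% and 0.222% in cluster 12 and 0.242%, 0.140%, 0.205%, 0.206%, 0.244% and 0.223% in cluster 13. The shallower cluster 11, whose nuclei had a median UMI count of 0.797 times that of their library and which was led by Nppa, had 0.412%, 0.288%, 0.429%, 0.415%, 0.433% and 0.376%.

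Rpl3l (ENSMUSG00000002500), the muscle form of L3, had the lowest log2 fold change of the 83 members in cardiomyocyte-like nuclei when R403Q-EMPA was set against WT-CD, where 5 members lay below 0. It had 178 and 154 CPM in WT-CD, 146 and 116 CPM in R403Q-CD and 102 and 113 CPM in R403Q-EMPA, so the 3 groups followed each other downward without overlap. The log2 fold change was -0.35 for R403Q-CD against WT-CD (adjusted p = 0.780 by edgeR, SE 0.17) and -0.34 for R403Q-EMPA against R403Q-CD (adjusted p = 0.438 by edgeR, SE 0.17). For R403Q-EMPA against WT-CD it was -0.69 (SE 0.17), with an unadjusted p of 0.00221 and an adjusted p of 0.0525 by edgeR, just short of the threshold. DESeq2 gave -0.69 for the same comparison and called it. Leaving out each library in turn, it ran from -0.79 to -0.58. The other values moved more: R403Q-CD against WT-CD was -0.17 without R403Q-CD replicate 2 and -0.54 without R403Q-CD replicate 1, and R403Q-EMPA against R403Q-CD was -0.15 without R403Q-CD replicate 1 and -0.51 without R403Q-CD replicate 2. For R403Q-EMPA against R403Q-CD 10 members lay below 0, and Rps27 (-0.38, SE 0.28) lay lower than Rpl3l.

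Rpl3 (ENSMUSG00000060036), the general form, had 14.1, 10.6, 10.2, 16.7, 24.4 and 15.4 CPM in cardiomyocyte-like nuclei, and the groups overlapped. Its log2 fold changes were 0.12, 0.50 and 0.62 for the 3 comparisons in the order above, with an adjusted p of 0.976, 0.466 and 0.238 by edgeR. Rpl3l supplied 92.7%, 93.6%, 93.5%, 87.4%, 80.8% and 88.0% of the UMIs of the pair, so it was the main form in each library. Within cluster 12 Rpl3l had 184, 156, 153, 128, 142 and 131 CPM, and in cluster 13 99.97, 122, 107, 95.4, 86.7 and 95.3 CPM. Cluster 13 was lower than cluster 12 in 6 of 6 libraries, and its share of the class was the larger in R403Q-EMPA. Inside cluster 12 the R403Q-EMPA and R403Q-CD libraries overlapped and both lay below WT-CD; inside cluster 13 both R403Q-EMPA libraries and 1 R403Q-CD library lay below WT-CD. In cluster 11 the values were 132, 159, 142, 91.7, 92.8 and 82.2 CPM.

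In fibroblast-like and endothelial-like nuclei Rpl3l was at 4.96 to 9.57 and 6.33 to 10.4 CPM, or 3.22% to 8.48% and 4.11% to 8.98% of the level in cardiomyocyte-like nuclei of the same library. Genes of the cardiac sarcomere, which these cells are not known to express, gave a wide range by the same measure. Ttn stood at 1.02% to 2.00% and 1.54% to 3.11%, Myh6 at 3.43% to 6.03% and 4.87% to 9.10%, and Tnnt2 at 6.40% to 14.3% and 9.02% to 19.6%. Rpl3l thus lay above Ttn and at or below the highest Tnnt2 value, and in fibroblast-like nuclei both R403Q-EMPA libraries, up to 8.48%, were above the highest Myh6 value. The Rpl3l reads outside cardiomyocyte-like nuclei cannot be told apart from such carried-over RNA. Its fold changes there, such as 0.28 (SE 0.33) in fibroblast-like nuclei for R403Q-EMPA against R403Q-CD, were therefore not read as expression.

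**Figure D4:**
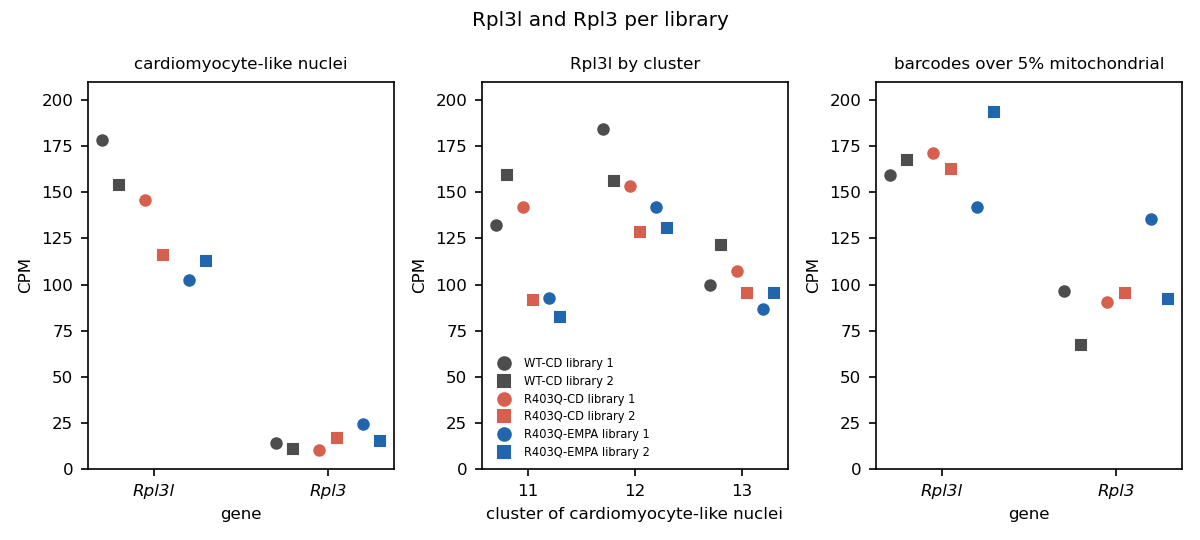
Level in CPM (vertical axes), 1 point per library, of Rpl3l and Rpl3 in cardiomyocyte-like nuclei (left), of Rpl3l in each of the 3 cardiomyocyte-like clusters (centre), and of both genes in cardiomyocyte-like barcodes with over 5% mitochondrial UMIs (right). In nuclei Rpl3l steps down from 178 and 154 CPM in WT-CD to 102 and 113 CPM in R403Q-EMPA while Rpl3 lies between 10.2 and 24.4 CPM, and in the barcodes on the right the groups overlap for both genes.

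The other paralog pairs showed no such division by class. Rpl22l1 took 38.1% of the UMIs of its pair with Rpl22 in cardiomyocyte-like, 34.0% in endothelial-like and 39.5% in fibroblast-like nuclei. For Rps27l beside Rps27 the shares were 34.9%, 28.7% and 31.7%, for Rpl36al beside Rpl36a 49.4%, 38.0% and 42.7%, and for Rpl7l1 beside Rpl7 49.2%, 33.7% and 42.3%. Rpl39l supplied 0.160%, 0.247% and 0.506% of the UMIs of its pair with Rpl39, from 1, 3 and 8 UMIs, and Rpl10l supplied none beside Rpl10. Rps4x, on the X chromosome, had 24.0, 12.5, 21.2, 24.0, 32.0 and 24.6 CPM in cardiomyocyte-like nuclei. Closely related copies share sequence, so their division depends on how reads that match more than 1 gene were treated. Rpl7l1 was unlike Rpl7 in its behaviour over libraries: in fibroblast-like nuclei it had 53.2, 42.8, 42.4, 44.3, 42.1 and 47.2 CPM, a narrow range, where Rpl7 had 81.0, 36.4, 49.7, 55.1, 89.4 and 73.7.

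Barcodes removed for their mitochondrial share held far more ribosomal protein RNA per UMI. When all barcodes were clustered without that limit, 219, 684, 2148, 2443, 2500 and 1268 cardiomyocyte-like barcodes had over 5% mitochondrial UMIs. The 87 genes made up 2.37%, 1.65%, 1.98%, 1.94%, 1.96% and 1.86% of their UMIs, against 0.146% to 0.254% in the cardiomyocyte-like barcodes under the limit. These barcodes were shallow, with 1089 to 1287 UMIs on average against 7228 to 12088. They held 23071 to 34993 CPM of the nuclear RNA Malat1 against 93686 to 130058, and 4711 to 6549 CPM of the myoglobin message Mb against 220 to 350.

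Members differed in how much higher they were in those barcodes. The ratio of the mean CPM over the limit to that under it had a median of 9.95 over the 83 members with at least 100 UMIs, and 79 of them were over 4-fold. The highest were Rplp0 (16.4-fold), Rps3 (15.1-fold), Rplp1 (13.5-fold) and Rps4x (13.2-fold), and Rps6 was 10.2-fold higher. For Rps6 the ratio was 10.95, 15.6, 11.1, 9.61, 8.12 and 9.02 in the 6 libraries, largest in WT-CD replicate 2, where its level under the limit was lowest. The 4 members under 4-fold were Rps19bp1 (2.60-fold), Rpl22l1 (3.36-fold), Rpl7l1 (1.44-fold) and Rpl3l (1.23-fold). Rpl3l had 159, 167, 171, 163, 142 and 193 CPM in these barcodes, and was higher than under the limit in 5 libraries and lower in WT-CD replicate 1. The other 82 members were higher in all 6. Rpl3 was 6.29-fold higher, at 96.4, 67.5, 90.5, 95.4, 136 and 92.1 CPM, so that Rpl3l supplied 62.3%, 71.3%, 65.4%, 63.0%, 51.1% and 67.7% of the pair there.

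**Figure D5:**
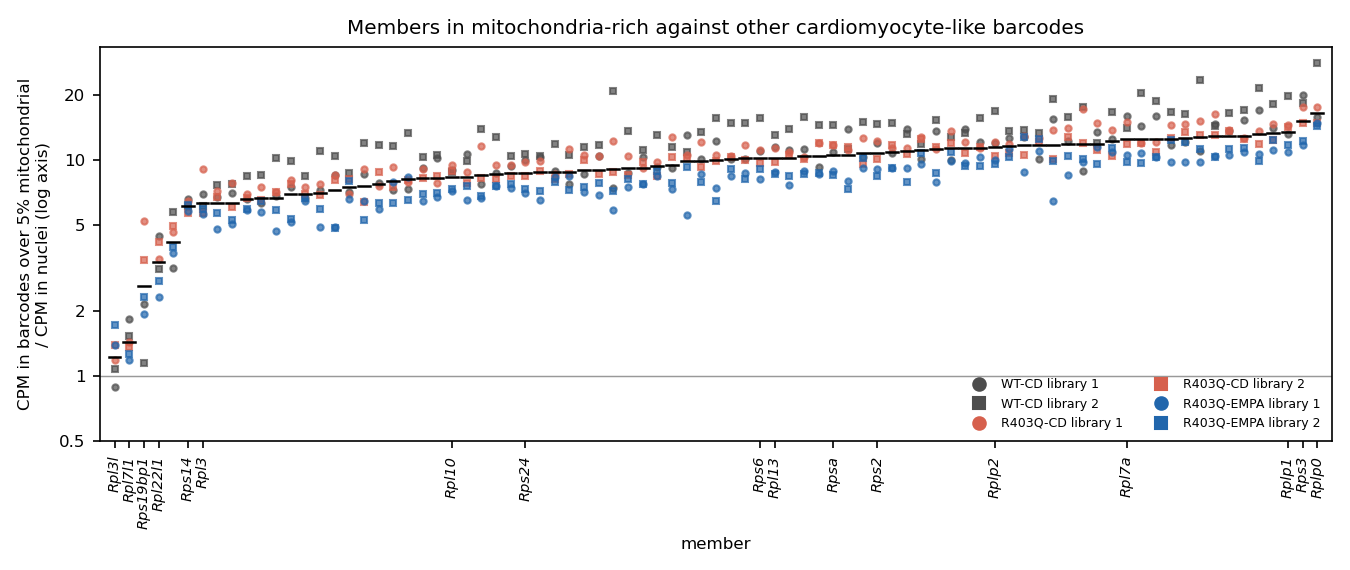
Ratio of the level (CPM) in cardiomyocyte-like barcodes over 5% mitochondrial UMIs to that in cardiomyocyte-like nuclei at or under the limit (vertical axis, log scale) for each of 83 ribosomal protein genes, some of them labelled, ordered by the ratio of the means over the 6 libraries (black bars), with 1 point per library. Most genes lie near 10 (median 9.95), and Rpl3l (1.23) and Rpl7l1 (1.44) lie near 1.

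The number of these barcodes differed between libraries, 219 and 684 in WT-CD against 1268 to 2500 in the mutant groups, and the comparison of groups depended on the limit. With the limit removed, 76 of 83 members were called higher in R403Q-CD than in WT-CD in the cardiomyocyte-like class, where edgeR called 4.57% of all genes, and the median log2 fold change was 1.00. For R403Q-EMPA against R403Q-CD 0 were called and the median became -0.31, the opposite sign of the value under the limit. For R403Q-EMPA against WT-CD 55 were called higher and 1, Rpl3l, lower, where 8.52% of all genes were called. The fibroblast-like and endothelial-like classes gave 0 called members in every comparison with the limit removed.

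Gene lists for the wider pathway gave few calls. Of 22 translation factors and other genes of the TOP class, among them Eef1a1, Eef2, Tpt1 and Pabpc1, edgeR called 0 in all 9 comparisons. Their median log2 fold changes for R403Q-EMPA against R403Q-CD were 0.30, 0.25 and 0.21 in fibroblast-like, cardiomyocyte-like and endothelial-like nuclei, beside 0.36, 0.21 and 0.20 for the ribosomal protein genes. The list of fusion genes outside the symbol rule gave 0 calls. Of 24 genes of ribosome biogenesis, which act in the nucleolus, 1 was called: Nop2, a methyltransferase of ribosomal RNA, higher in R403Q-EMPA than in WT-CD in cardiomyocyte-like nuclei, where 4.00% of all genes were called, so that 1 of 24 is near the background. The medians of that list for R403Q-EMPA against R403Q-CD were 0.01, 0.22 and -0.01. Of 78 genes for mitochondrial ribosomal proteins only Mrps6 was called. It rose in R403Q-EMPA against both other groups in fibroblast-like and endothelial-like nuclei and against WT-CD in cardiomyocyte-like nuclei. The share of all genes called in those 5 comparisons ran from 0.171% to 4.00%. The medians of the list for R403Q-EMPA against R403Q-CD were 0.10, 0.26 and 0.12.

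Lists that mark the state of the nuclei were read beside these. For the 13 mitochondrially encoded genes 0 were called, with medians of 0.40, 0.43 and 0.29 for R403Q-EMPA against R403Q-CD. For 4 nuclear long non-coding RNAs 0 were called, with medians of 0.01, 0.09 and 0.09. For 8 abundant cardiomyocyte messages 0 were called, with medians of 0.14, -0.12 and 0.10, and for 4 red cell messages 0 were called, with medians of -0.75, -0.38 and -0.27. Of 7 tested genes of the response to tissue handling, the heat shock genes Hspa1a and Hspa1b rose in R403Q-EMPA against R403Q-CD in fibroblast-like and endothelial-like nuclei, and Hspa1b in cardiomyocyte-like nuclei. The same 2 genes rose in R403Q-EMPA against WT-CD in all 3 classes, together with Atf3 in cardiomyocyte-like nuclei, and Atf3 also rose in R403Q-CD against WT-CD there. Of all genes, edgeR called 0.372%, 0.251% and 0.171% in fibroblast-like, cardiomyocyte-like and endothelial-like nuclei for R403Q-EMPA against R403Q-CD. Against WT-CD the shares were 1.23%, 4.00% and 0.640%. For R403Q-CD against WT-CD in cardiomyocyte-like nuclei the share was 0.0627%. The summed level of this list was 0.00686%, 0.00299%, 0.00931%, 0.0103%, 0.0126% and 0.00885% of the UMIs of cardiomyocyte-like nuclei. Its part in the differences of the ribosomal protein genes was not tested.

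Ribosomal protein messages are short, with a median length of 714 bases over the members tested against 2226.5 bases over all genes tested in fibroblast-like nuclei. Within the members, the shortest 28 (367.5 to 612 bases), the middle 27 (614 to 838) and the longest 28 (854 to 3706) had median log2 fold changes for R403Q-EMPA against R403Q-CD of 0.25, 0.42 and 0.39 in fibroblast-like nuclei. In cardiomyocyte-like nuclei they were 0.16, 0.21 and 0.22, and in endothelial-like nuclei 0.08, 0.23 and 0.23. The shortest members thus had the smallest median in each class. Other genes with messages under 1000 bases had medians of 0.07, 0.07 and 0.05.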

How the data were processed

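Nuclei were isolated from fresh frozen left ventricle and sequenced by 10x 3′ chemistry in 6 libraries, 2 per group. The deposited tables hold raw UMI counts per gene and barcode, which per the labels the authors made with Cell Ranger 8.0.1 on GRCm39 (submitters' processing notes). Whether intronic reads were counted is not given in the sources used here. Barcodes with at least 500 UMIs, at least 300 genes and at most 5% mitochondrial UMIs were kept, and doublets were removed with Scrublet in each library. In the clustering without the mitochondrial limit Scrublet called few doublets in R403Q-EMPA replicate 1. There the 1264 barcodes (10.1%) with the highest doublet scores were removed instead, against 4.67% to 6.77% in the other libraries. Nuclei were clustered in scanpy 1.11.5 (2000 variable genes, 30 principal components, 15 neighbours, Leiden resolution 1), and a cluster was named from fixed markers where at least 3 were 2-fold enriched and present in 10% of its nuclei. Because names were rebuilt, classes may differ from those of the study.

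Counts were summed per class and library. Tests were run in edgeR 4.0.16 (R 4.3.3; quasi-likelihood, glmQLFTest) on all 6 libraries with a group term, filterByExpr and TMM scaling, with 3 residual degrees of freedom among samples and Benjamini-Hochberg adjustment over all genes tested in a class and comparison. There were 9 comparisons, of 3 classes and 3 contrasts, and contrasts share libraries. DESeq2 1.42.0 was an alternative. Others were library totals without TMM, no filter on low counts, other mitochondrial limits, at least 1000 UMIs per nucleus and each library left out. The scripts were tested on simulated data. Between the 2 libraries of a group the chi-square of counts per degree of freedom was 50.5, 7.83 and 38.1 for WT-CD, R403Q-CD and R403Q-EMPA, which is more than sampling noise, so each was counted as its own library. Replicate numbers were given in accession order and pair nothing.

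The members and lists were chosen with earlier results of these data known. Named whatever their result were the 10 members with the highest mean CPM, 8 paralog pairs (of which Rps4l was not matched), Rplp0, Rplp1, Rplp2, Rpsa, Rps6 and Rps19bp1. Where no member was called in a class and comparison, the 3 with the smallest p were named as well, and other members named were singled out after their values were seen. Some members are not reported by name here. The 9 lists were genes of the TOP class, fusion genes, ribosome biogenesis, mitochondrial ribosomal proteins, mitochondrially encoded genes, nuclear long non-coding RNAs, cardiomyocyte messages, red cell messages and the response to tissue handling. Message lengths came from GENCODE vM21, matched for all 87 members.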

Additional observations from a re-analysis of the deposited data

How the results depend on the processing

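No member was called in the main test in any of the 9 comparisons, and 98 of the 114 counts recomputed under alternative settings were also 0. The other 16 were above 0. Without a filter on low counts edgeR called 10 of 86 members in fibroblast-like nuclei for R403Q-EMPA against R403Q-CD (4.03% of all genes) and 4 against WT-CD (4.44%, near the members' share), 9 in cardiomyocyte-like nuclei for R403Q-EMPA against WT-CD (8 higher and Rpl3l lower, 5.81%), and 1 in endothelial-like nuclei for R403Q-EMPA against each other group (2.08% and 3.21%). DESeq2 called 1 member, and a mitochondrial limit of 3%, chosen after seeing the data, also gave 1, in cardiomyocyte-like nuclei for R403Q-EMPA against WT-CD, in both cases Rpl3l, when 5.08% and 4.17% of all genes were called. Without the mitochondrial limit the cardiomyocyte-like class gave 76 called members (median 1.00) for R403Q-CD against WT-CD, a median of -0.31 for R403Q-EMPA against R403Q-CD and 56 called members (median 0.69) for R403Q-EMPA against WT-CD. The summed level then differed by 0.283, -0.0971 and 0.186 percentage points. This setting adds the barcodes over 5% mitochondrial UMIs to the class.

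With each library left out in turn, the called members for R403Q-EMPA against WT-CD ran from 0 to 50 in fibroblast-like, 0 to 31 in cardiomyocyte-like and 0 to 33 in endothelial-like nuclei, and for R403Q-EMPA against R403Q-CD in fibroblast-like nuclei from 0 to 5. The highest counts against WT-CD came without WT-CD replicate 1, and the 5 came without WT-CD replicate 1 and again without WT-CD replicate 2 (1.83% and 1.74% of all genes called). In these fits the lone library of a group is assumed to vary like those of the other groups. The median for R403Q-EMPA against WT-CD ran from -0.069 to 0.76, from 0.0503 to 0.69 and from -0.16 to 0.60 in the 3 classes. For R403Q-CD against WT-CD it ran from -0.43 to 0.44, from -0.15 to 0.51 and from -0.36 to 0.45. For R403Q-EMPA against R403Q-CD it ran from 0.27 to 0.44, from 0.11 to 0.27 and from 0.12 to 0.28. Rpl37 and Rps21 in fibroblast-like nuclei changed sign for R403Q-CD against WT-CD without WT-CD replicate 1 (0.33 and 0.37), and their values ran from -0.84 to 0.33 and from -0.79 to 0.37. Rpl3 in cardiomyocyte-like nuclei changed sign without R403Q-CD replicate 2 and ran from -0.25 to 0.42.

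Of 270 values for named genes, 249 kept their direction and side of the threshold, 18 passed it and 3 changed sign. Leaving out the low-depth cardiomyocyte-like cluster, also chosen after seeing the data, gave 0 called members. A limit of 1% mitochondrial UMIs could not be fitted for fibroblast-like and endothelial-like nuclei, which left a library with under 20 nuclei. With 2 libraries per group, and a WT-CD pair that differed by a median of 1.69 to 1.92 times, differences from WT-CD of that size lie within the spread between its libraries.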
